A study of Mus musculus with 4 samples.

Results

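The genes described here are 32 digestive enzymes and secretory granule proteins of the pancreatic acinar cell, chosen by symbol. The list of names was set with earlier results of these data known. They were followed through the gene lists of 4 single-cell RNA sequencing libraries of mouse fetal pancreas. All 32 occurred in at least 1 of the 3 complete gene lists, among 29652 genes listed in any of those 3. Acinar cells make digestive enzymes, pack them as inactive precursors into zymogen granules and release them into the duct when a meal is eaten. In the fetal pancreas they arise from the tips of the branching epithelium, where progenitors switch on these genes step by step during the second part of gestation. The acinar state depends on the transcription complex PTF1, in which Ptf1a pairs with an E protein and with Rbpj or its acinar relative Rbpjl.

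The embryos had a C57BL/6 background and were taken at E15.5 or E13.5, with 1 library per combination of age and genotype. The KO embryos carried Setd2 f/f and Pdxcre, a Cre recombinase under a pancreatic promoter that is active in progenitors and so in the acinar, ductal and endocrine cells derived from them. The WT embryos carried Setd2 f/f, the loxP-flanked alleles, and are labelled WT. Setd2 encodes a methyltransferase of histone H3. The cells were dissociated with TrypLE, labelled for the epithelial surface protein EpCAM and sorted. The deposited values used here are gene lists, in which a gene is listed or not, so no level, cell number or depth stands behind a listing. How many embryos went into a library is not stated.

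There were 25474 genes in the E15.5 KO list, 26341 in that of E13.5 KO and 25463 in that of E13.5 WT. The E15.5 WT list stopped inside an identifier after 167 complete entries, at identifier ENSMUSG00000001065. The lowest identifier among the acinar genes belongs to Cpb1 (ENSMUSG00000011463), so 0 of the 32 could be read in E15.5 WT. No genotype comparison at E15.5 and no age comparison in WT was therefore possible for these genes. Setd2 itself was listed in each of the 3 complete lists, and a listing does not check the deletion. The epithelial markers Epcam, Cdh1, Krt8, Krt18 and Krt19 and the 14 acinar transcription factors examined, Ptf1a, Rbpjl, Bhlha15 and Nr5a2 among them, were in all 3 complete lists. Markers of cells that an EpCAM sort should remove were listed as well. All 6 mesenchymal and all 4 immune markers were in all 3 complete lists, and the 4 endothelial and 4 erythroid markers were complete in both E13.5 lists, with 2 of each in E15.5 KO. Each group is a single library, so nothing here could be tested against replicate spread and no p-value is given.

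In the E15.5 KO list 32 of 32 acinar genes were present, in the E13.5 KO list 30, and in the E13.5 WT list 28. The lists were nested for these genes. Each of the 28 in E13.5 WT was also in E13.5 KO, and each of the 30 in E13.5 KO was also in E15.5 KO. The 4 genes that separated the lists were Try4, Cuzd1, Cela3a and Reg2. Try4, a trypsinogen, and Cuzd1, a membrane protein of the zymogen granule, were in the E15.5 KO list alone. Cela3a, an elastase, and Reg2, a secreted protein of the regenerating family, were in both KO lists and missing from E13.5 WT. Among all genes in any complete list, 4.88% were in E15.5 KO alone and 3.94% in both KO lists only. Among protein-coding genes these shares were 1.57% and 1.28%. In all 3 lists were 74.9% of all genes and 89.4% of protein-coding genes. The other patterns, which no acinar gene had, were also rare among protein-coding genes. They were both E13.5 lists only (3.09%), E13.5 WT alone (1.93%), E13.5 KO alone (1.84%) and E15.5 KO with E13.5 WT only (0.93%). Among all genes they were 4.69%, 4.09%, 5.31% and 2.19%.

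**Figure D1:**
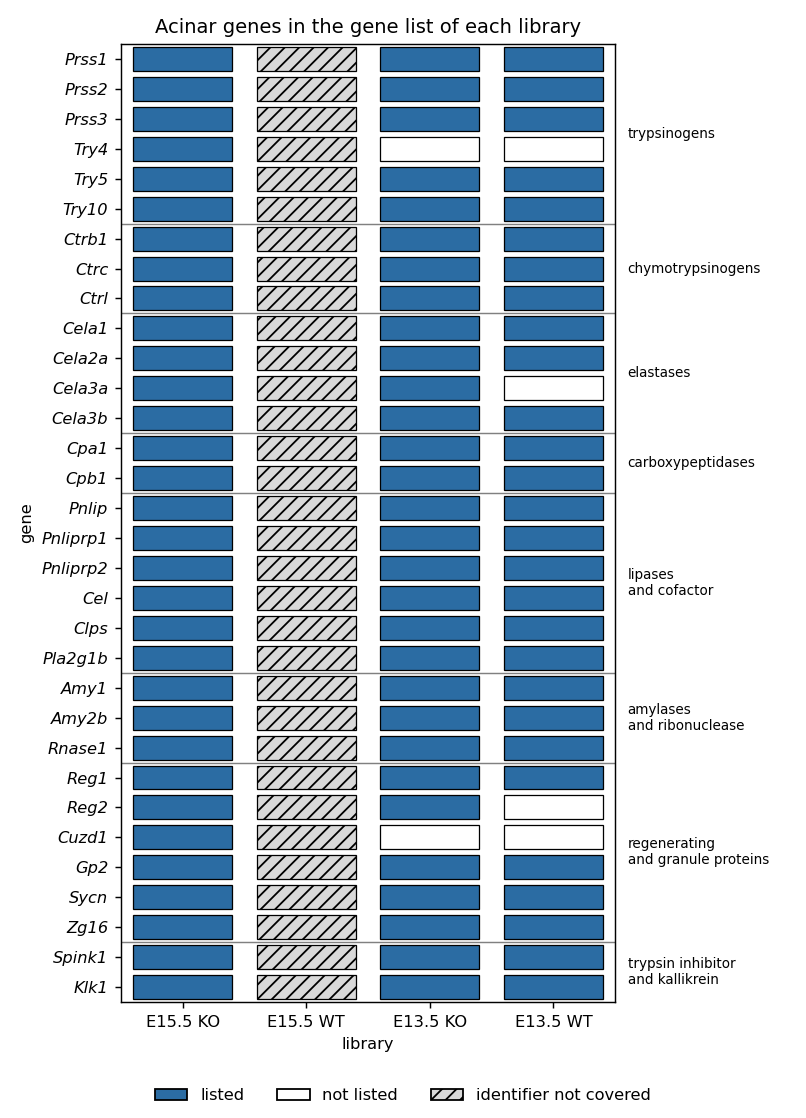
Listing of the 32 acinar genes (rows, grouped by role) in each library (columns). Filled cells are listed, open cells are not listed, and hatched cells are genes whose identifier the cut E15.5 WT list did not cover. The open cells are Try4 and Cuzd1 in both E13.5 libraries and Cela3a and Reg2 in E13.5 WT.

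Because 4 of these genes decide every difference, and because trypsinogens are close copies of each other, their sequences are shown before the roles are taken in turn. The next lines give the last 150 coding bases before the stop codon of the 6 trypsinogens, from the GENCODE M21 transcripts (GRCm38, chromosome 6), 5′ to 3′ on the coding strand. Capitals mark each base that differs from Try4 at the same place. The stretch is as long as the 150 bp reads named in the labels.
Try4: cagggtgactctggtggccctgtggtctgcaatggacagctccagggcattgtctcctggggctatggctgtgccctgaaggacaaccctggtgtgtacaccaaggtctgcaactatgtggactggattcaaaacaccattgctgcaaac
Try5: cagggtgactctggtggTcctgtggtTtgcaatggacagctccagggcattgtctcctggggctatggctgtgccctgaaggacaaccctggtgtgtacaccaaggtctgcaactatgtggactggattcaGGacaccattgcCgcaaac
Try10: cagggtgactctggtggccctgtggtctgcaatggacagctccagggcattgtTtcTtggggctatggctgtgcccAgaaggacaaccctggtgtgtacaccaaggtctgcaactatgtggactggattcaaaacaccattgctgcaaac
Prss1: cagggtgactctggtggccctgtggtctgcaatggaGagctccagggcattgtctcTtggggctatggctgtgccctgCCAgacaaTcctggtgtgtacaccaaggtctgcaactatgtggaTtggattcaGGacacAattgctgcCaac
Prss3: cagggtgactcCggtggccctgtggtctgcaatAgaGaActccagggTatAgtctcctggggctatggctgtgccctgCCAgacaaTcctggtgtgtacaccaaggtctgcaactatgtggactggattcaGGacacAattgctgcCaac
Prss2: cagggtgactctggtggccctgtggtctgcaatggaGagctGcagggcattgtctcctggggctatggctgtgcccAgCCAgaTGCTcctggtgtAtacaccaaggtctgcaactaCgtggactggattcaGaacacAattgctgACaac
Over this stretch Try10 differed from Try4 at 3 bases, Try5 at 5, Prss1 at 11, Prss3 at 14 and Prss2 at 16. All 6 coding sequences were 738 bases long. Over the whole of it Try4 differed from Try5 at 19 bases (97.4% identity) and from Prss2 at 61 (91.7%). The most distant pair was Prss2 and Prss3, with 84 differences (88.6%).

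The trypsinogens are the serine protease precursors that start the activation of all other zymogens once enteropeptidase has cut them in the gut. Of the 6, the E15.5 KO list held 6, the E13.5 KO list 5 and the E13.5 WT list 5. Prss1, Prss2, Prss3, Try5 and Try10 were in all 3 complete lists, and Try4 (ENSMUSG00000054106, chromosome 6, 41302269 to 41305532, plus strand, mm10/GRCm38) was in E15.5 KO alone. All 6 lie on chromosome 6 within 222.8 kb of the start of Try4, in the same stretch as the T cell receptor beta genes.

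A sequence search found 4 further genes in this stretch that were close copies of a trypsinogen, defined as at least 80% identity over at least 50% of the transcript. Gm5771 and Gm10334, annotated as protein-coding, were in all 3 complete lists. Gm5409 and Gm37301, annotated as unprocessed pseudogenes, were in E15.5 KO alone, like Try4. The family of 10 was thus listed in full in E15.5 KO, against 7 in E13.5 KO and the same number in E13.5 WT.

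**Figure D2:**
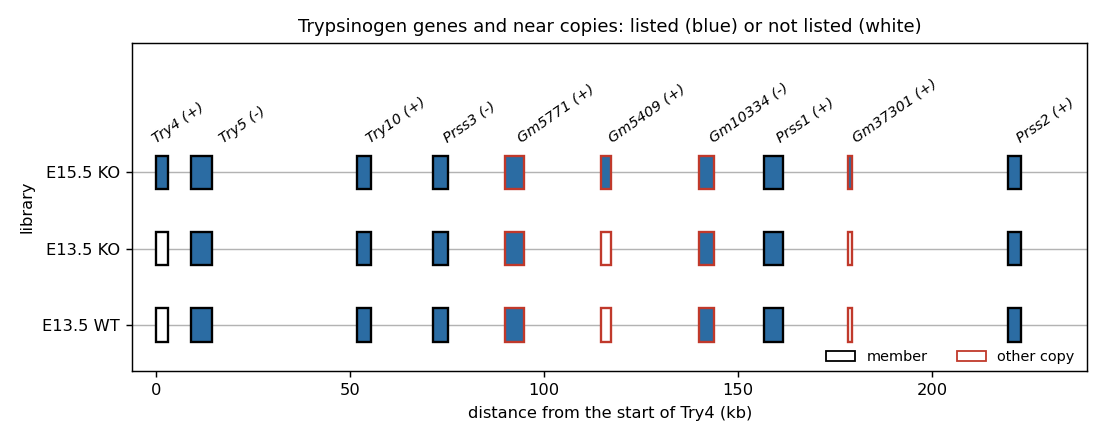
Trypsinogen genes and their close copies, placed by distance in kb from the start of Try4, with 1 row per complete list. Filled boxes are listed, open boxes are not listed, black outlines are the 6 trypsinogens of the acinar list and red outlines the 4 other copies. Try4, Gm5409 and Gm37301 are filled in the E15.5 KO row alone.

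A read can be given to Try4 only where its sequence differs from its copies. Of the 652 windows of 150 bases in the Try4 transcript, 125 (19.2%) also occurred in a transcript of another gene, and in each case that gene was Try5. Try5 was in all 3 complete lists, and its nearest relative was Try4, with 97.1% identity over the full transcript. Prss3 shared the most, with 31.2% of its windows, 210 of them with Gm10334 (98.8% identity). Prss1 shared 3.66%, and Prss2 and Try10 shared 0% at this length. Gm5409 was closest to Try10, with 97.7% identity over 698 bases. How reads that fit several genes were counted is not stated, so for Prss1, Prss3, Try4 and Try5 part of the transcript cannot tell which copy was listed.

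**Figure D3:**
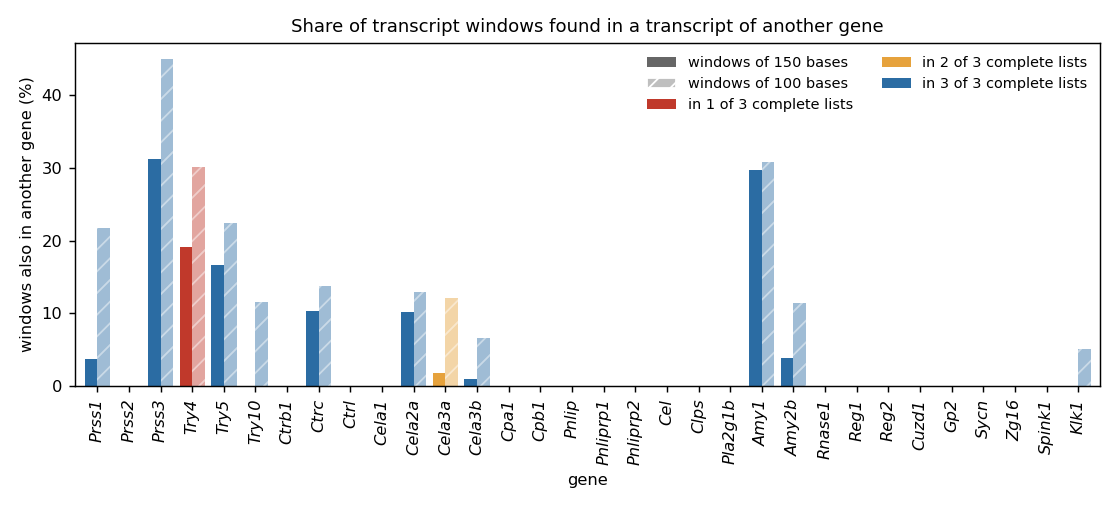
Share of each gene's transcript windows (percent) that also occur in a transcript of another annotated gene, for windows of 150 bases (solid) and 100 bases (hatched). Colours give the number of complete lists that held the gene. Try4 shares 19.2% of its 150-base windows, while Reg2 and Cuzd1 share 0%.

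The chymotrypsinogens and elastases are the other serine protease precursors of pancreatic juice. Chymotrypsinogen B (Ctrb1), chymotrypsin C (Ctrc), which also acts on trypsinogen, and Ctrl were in all 3 complete lists. So were the elastases Cela1, Cela2a and Cela3b. Cela3a (ENSMUSG00000078520, chromosome 4, 137401554 to 137409791, minus strand) was in E15.5 KO and E13.5 KO and not in E13.5 WT. Cela3a and its neighbour Cela3b were 90.1% identical, and 1.73% of the Cela3a windows of 150 bases also occurred in Cela3b. At 100 bases this share was 12.1%. Most of the Cela3a transcript can therefore be told from Cela3b at either length.

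Ctrc and Cela2a are a different case of shared sequence. They lie on the same strand of chromosome 4 and their annotated exons overlap by 305 bases, with 10.3% of Ctrc windows and 10.2% of Cela2a windows held in common. Both were in all 3 complete lists, and reads from the overlap fit both genes. Ctrcos, an antisense gene that overlaps the span of Ctrc with 0 shared exonic bases, was in both KO lists and not in E13.5 WT. Gm13381, an antisense gene over the span of Cel with 0 shared exonic bases, had the same pattern. Mir6969, a microRNA gene that overlaps the span of Clps, also with 0 shared exonic bases, was in E15.5 KO and E13.5 WT and not in E13.5 KO.

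The carboxypeptidases and the fat-splitting enzymes did not separate the libraries. Cpa1, which removes residues from the end of peptides and also marks the early tip progenitors, and Cpb1, which removes basic residues, were in all 3 complete lists. So were the 6 genes of fat digestion. These are pancreatic triglyceride lipase (Pnlip), its relatives Pnliprp1 and Pnliprp2, bile salt-activated carboxyl ester lipase (Cel), the lipase cofactor colipase (Clps) and phospholipase A2 (Pla2g1b). Clpsl2, a colipase-like gene near Clps, was in E13.5 WT alone. The 8 acinar genes of these roles had no window of 150 or 100 bases in common with another gene. Pnlip, Pnliprp1 and Pnliprp2 lie close together on chromosome 19. Between Pnlip and Pnliprp1, the transcribed pseudogene 1810018F18Rik was listed in E15.5 KO alone.

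The amylases split starch and ribonuclease 1 (Rnase1) degrades RNA. Amy1, the salivary-type amylase, Amy2b and Rnase1 were in all 3 complete lists. Amy2b is annotated as an unprocessed pseudogene in GENCODE M21 and as protein-coding in RefSeq. Its transcript was 97.9% identical to Amy2a5, and 3.92% of its windows of 150 bases also occurred in Amy2a genes. Amy2a5 appeared in the lists under the symbol Amy2 (ENSMUSG00000074268) and was in both KO lists and not in E13.5 WT. Amy2a1 was in E15.5 KO alone, and Amy2a2, Amy2a3 and Amy2a4 were in none of the 3. Of Amy1 windows 29.7% also occurred in Rnpc3, a splicing factor gene whose exons overlap those of Amy1 by 1128 bases on the same strand and which was in all 3 complete lists. Reads from these shared windows fit both genes.

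The granule proteins held the remaining differences. Glycoprotein 2 (Gp2), the main membrane protein of the granule, syncollin (Sycn) and the lectin Zg16 were in all 3 complete lists, as was Reg1. Reg2 (ENSMUSG00000023140, chromosome 6, 78395623 to 78408106, plus strand) was in E15.5 KO and E13.5 KO and not in E13.5 WT. Cuzd1 (ENSMUSG00000040205, chromosome 7, 131308554 to 131322292, minus strand) was in E15.5 KO and in neither E13.5 list. Its span overlaps that of Fgfr2 on the same strand, with 0 shared exonic bases, and Fgfr2 was in all 3 complete lists. Neither Reg2 nor Cuzd1 shared a window of 100 or 150 bases with another gene. The other Reg genes of the same cluster varied too. Reg3a and Reg3b were in E15.5 KO alone, and Reg3d and Reg3g were in all 3 complete lists.

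The trypsin inhibitor Spink1, which protects the granule from early trypsin activity, was in all 3 complete lists. So was tissue kallikrein (Klk1), a protease that releases kinins. Klk1 had 19 close copies in the annotation, of which E15.5 KO listed 11, E13.5 KO 7 and E13.5 WT 8. Of these copies 2 were in E15.5 KO alone, Klk1b5, the closest to Klk1 with 94.1% identity, and Klk1b22. Klk1b16 was in both KO lists and not in E13.5 WT, and Klk1b26 and Klk1b27 were in E15.5 KO and E13.5 WT and not in E13.5 KO. Klk1 shared 0% of its windows of 150 bases with another gene and 5.09% of those of 100 bases.

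The genotypes were compared at E13.5, to ask whether the KO genotype goes with a different set of acinar genes at the earlier age. Of the 30 acinar genes in either list, 2 (6.67%) were in KO only, Cela3a and Reg2, 0 were in WT only and 28 were in both. Over all genes in either list, 9.72% were in KO only and 6.61% in WT only. Over protein-coding genes these shares were 3.17% and 2.91%. The 2 acinar genes in KO only thus lay between the share of protein-coding genes and that of all genes. A difference of 2 listings in 1 library each is not a measured rise or fall of either gene. Genotype, sort and library coincide here and cannot be told apart.

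The KO ages were compared next, for the same question on age. It uses the same E13.5 KO library as the comparison before. Of the 32 acinar genes in either list, 2 (6.25%) were in E15.5 only, Try4 and Cuzd1, 0 were in E13.5 only and 30 were in both. Over all genes in either list, 7.37% were in E15.5 only and 10.4% in E13.5 only, and over protein-coding genes 2.55% and 5.03%. Without Try4, which shares 19.2% of its 150-base windows with Try5, the count in E15.5 only was 1. Age, sort and library coincide here and cannot be told apart.

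**Figure D4:**
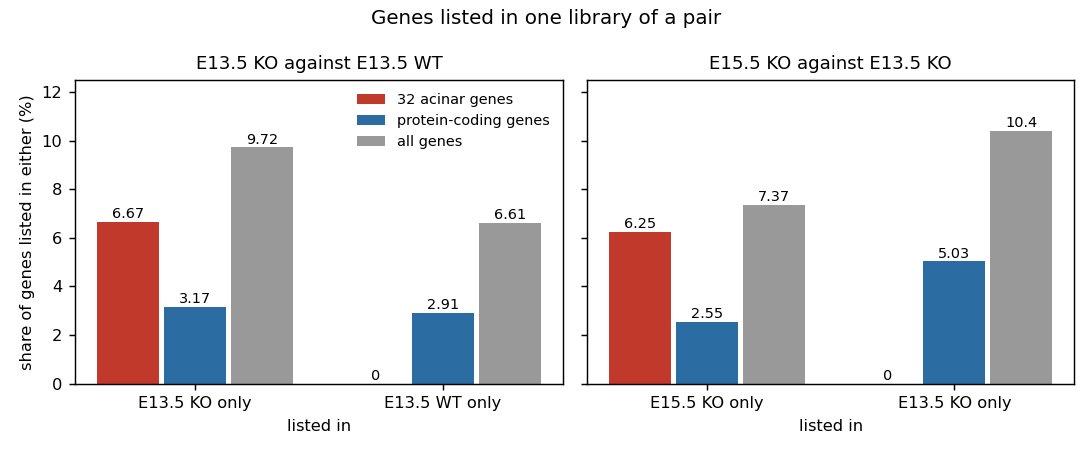
Share (percent) of the genes listed in either library of a pair that were listed in 1 of them only, for the 32 acinar genes, protein-coding genes and all genes. The left panel sets E13.5 KO against E13.5 WT and the right panel E15.5 KO against E13.5 KO. The acinar genes stand at 6.67% and 6.25% in the left-hand direction of each panel and at 0% in the other.

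Set against all annotated protein-coding genes, listed or not, the acinar genes were listed at a higher rate. Their names were set with earlier results of these data known, so the rate depends in part on that choice. Amy2a2, Amy2a3 and Amy2a4, which no complete list held, are outside the acinar list. Of the 22028 annotated protein-coding genes, 75.9% were listed in E15.5 KO, 77.9% in E13.5 KO and 77.7% in E13.5 WT. For the 31 protein-coding members of the acinar list the shares were 100% in E15.5 KO, 93.5% in E13.5 KO and 87.1% in E13.5 WT. Among the 17949 protein-coding genes that any complete list held, 89.4% were in all 3, against 27 of the 31 (87.1%).

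Other genes that act in acinar cells, not all of them particular to that cell, were examined in lists which leave out the 32. The 14 transcription factors, the 14 genes of granule exocytosis, such as Rab3d, Rab27b, Vamp8 and Stx3, and the 13 receptors and signalling genes of secretion, such as Cckar, Chrm3 and Sctr, were in all 3 complete lists. The same was true of the 20 genes of protein folding and export from the endoplasmic reticulum, such as Pdia2, Hspa5 and Sel1l. Beside these complete lists, 89.4% of the protein-coding genes that any complete list held were in all 3. Of 26 annotated other secreted and surface genes of acinar cells, E15.5 KO listed 23, E13.5 KO 18 and E13.5 WT 18. Of all annotated protein-coding genes, 75.9% were in E15.5 KO, 77.9% in E13.5 KO and 77.7% in E13.5 WT. In E15.5 KO alone were Amy2a1, Reg3a, Reg3b and Gm5409. Amy2a5 was in both KO lists only, and Dmbt1, a mucosal scavenger receptor protein, was in E15.5 KO and E13.5 WT and not in E13.5 KO. The 3 not listed anywhere were Amy2a2, Amy2a3 and Amy2a4.

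Genes that act on zymogens or digest food elsewhere in the gut differed in both directions. The shares of all annotated protein-coding genes beside them were again 75.9% in E15.5 KO, 77.9% in E13.5 KO and 77.7% in E13.5 WT. Of 12 genes of zymogen activation and protease inhibition, 10 were in E15.5 KO, 11 in E13.5 KO and 10 in E13.5 WT. Enteropeptidase (Tmprss15), which activates trypsinogen in the duodenum, was in both KO lists and not in E13.5 WT. The broad protease inhibitor Pzp was in both E13.5 lists and not in E15.5 KO, and the skin inhibitor Spink5 was in none of the 3. Of 14 enzymes of the stomach and intestine, 12 were in E15.5 KO, 10 in E13.5 KO and 11 in E13.5 WT. Gastric lipase (Lipf) and trehalase (Treh) were in E15.5 KO alone, intestinal alkaline phosphatase (Alpi) was in E13.5 WT alone, and sucrase-isomaltase (Sis) was in none of the 3. Among the 6 markers of liver, stomach and gut, Alb, Afp, Tff2 and Cdx2 were in all 3 complete lists. Tff1 was in E13.5 WT alone and Muc5ac in E15.5 KO and E13.5 WT. The part that cells of neighbouring gut tissue play in these listings was not tested.

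**Figure D5:**
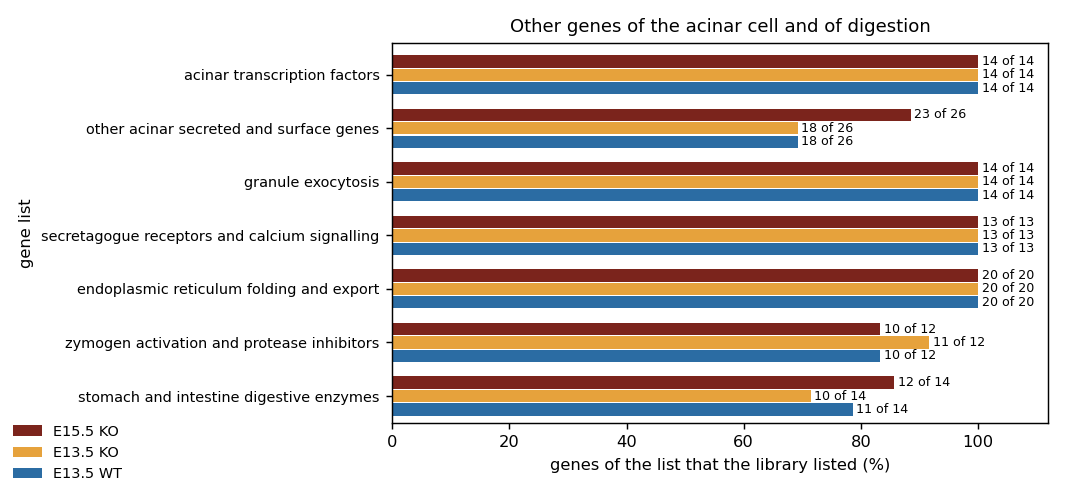
Share (percent) of the annotated genes of 7 other gene lists that each complete list held, with counts beside the bars. The other acinar secreted and surface genes stand at 23 of 26 in E15.5 KO, 18 of 26 in E13.5 KO and 18 of 26 in E13.5 WT, and 4 of the 7 lists are complete in all 3 libraries.

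The 32 genes lie on 12 chromosomes, with 9 on chromosome 6 and 5 on chromosome 7. Within 100 kb of them the annotation holds 135 other protein-coding genes, of which 110 were in E15.5 KO, 109 in E13.5 KO and 108 in E13.5 WT. Of the 119 that any complete list held, 100 (84%) were in all 3, against 89.4% of all listed protein-coding genes. In E15.5 KO alone were 6 (5.04%, against 1.57%), in both KO lists only 3 (2.52%, against 1.28%), in E13.5 KO alone 2 (1.68%, against 1.84%) and in E13.5 WT alone 3 (2.52%, against 1.93%). Another 4 were in both E13.5 lists only and 1 in E15.5 KO and E13.5 WT only. These counts repeat genes of the same families that were already named above. The 6 in E15.5 KO alone include Amy2a1, Reg3a, Reg3b and Klk1b5. The 3 in both KO lists only include Amy2a5 and Klk1b16, and the 3 in E13.5 WT alone include Clpsl2. The 66 listed neighbours of other types are pseudogenes, non-coding genes and T cell receptor gene segments. Of these, 29 (43.9%) were in all 3, against 52.7% of all 11655 listed genes not annotated as protein-coding. In E15.5 KO alone were 15 (22.7%, against 9.98%), in both KO lists only 6 (9.09%, against 8.01%) and in E15.5 KO and E13.5 WT only 7 (10.6%, against 4.13%). In E13.5 KO alone were 7 (10.6%, against 10.6%), in both E13.5 lists only 2 (3.03%, against 7.14%) and in E13.5 WT alone 0 (against 7.43%). Genes named above are again among them. Gm5409, Gm37301 and 1810018F18Rik belong to the 15 in E15.5 KO alone. Ctrcos and Gm13381 belong to the 6 in both KO lists only, and Mir6969 to the 7 in E15.5 KO and E13.5 WT only. All these shares come from counts over genes in 3 libraries and were not tested.

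The stretch before the transcription start was available from RefSeq (GRCm38.p6) for 26 of the 32 genes, as 250 bases before and 50 after the start, 27 stretches in all. Motifs were searched by letters on both strands, and a match is a description of these letters and not a binding site. The E-box CANNTG, the form of the site that Ptf1a and E proteins bind, was in 81.5% of the 27, against 72.3% of the 32851 stretches of all genes. TTCCCA, the core of the Rbpj site, was in 63.0% (17 of 27), against 25.6% of all. Both occurred together in 51.9%, against 19%. The letters of these motifs can overlap, since TTCCCA ends with the bases that open an E-box. TATAAA, searched on the coding strand only, was in 44.4%, against 8.32%, and AAGGTCA, a form of the Nr5a2 half-site, in 14.8%, against 4.72%. The 27 include stretches of genes that are close copies of each other, such as Prss1 and Prss3. They are therefore not independent, and the shares were not tested.

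The stretches of the 4 genes that separated the lists are given next, since listing differed at these genes, 5′ to 3′ on the coding strand, with capitals at CANNTG and at TTCCCA or its reverse complement TGGGAA. They lie at chr6:41302022-41302321 (Try4, plus strand), chr7:131322243-131322542 (Cuzd1, minus strand), chr4:137409742-137410041 (Cela3a, minus strand) and chr6:78404905-78405204 (Reg2, plus strand).
Try4: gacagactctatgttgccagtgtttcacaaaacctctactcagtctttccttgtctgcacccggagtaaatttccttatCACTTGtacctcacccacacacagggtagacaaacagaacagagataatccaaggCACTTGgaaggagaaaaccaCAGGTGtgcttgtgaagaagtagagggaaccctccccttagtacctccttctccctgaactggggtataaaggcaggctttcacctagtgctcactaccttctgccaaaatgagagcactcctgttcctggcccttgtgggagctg
Cuzd1: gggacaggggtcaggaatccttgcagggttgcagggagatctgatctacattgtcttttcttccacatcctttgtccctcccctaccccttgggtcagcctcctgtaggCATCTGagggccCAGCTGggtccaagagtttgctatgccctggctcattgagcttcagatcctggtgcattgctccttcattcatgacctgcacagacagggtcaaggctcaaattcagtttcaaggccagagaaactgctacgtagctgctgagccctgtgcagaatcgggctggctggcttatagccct
Cela3a: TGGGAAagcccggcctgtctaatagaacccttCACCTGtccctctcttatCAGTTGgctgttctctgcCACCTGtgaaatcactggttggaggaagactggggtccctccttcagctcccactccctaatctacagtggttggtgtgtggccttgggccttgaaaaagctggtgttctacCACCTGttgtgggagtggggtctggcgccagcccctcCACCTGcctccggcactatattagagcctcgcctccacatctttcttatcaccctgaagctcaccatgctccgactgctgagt
Reg2: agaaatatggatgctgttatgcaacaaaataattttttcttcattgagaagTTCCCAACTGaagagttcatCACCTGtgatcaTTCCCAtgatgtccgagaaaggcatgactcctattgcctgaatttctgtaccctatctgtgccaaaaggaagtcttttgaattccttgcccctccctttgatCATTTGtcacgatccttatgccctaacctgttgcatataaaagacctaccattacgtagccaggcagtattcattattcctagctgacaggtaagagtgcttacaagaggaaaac
Try4 held 3 E-boxes and no TTCCCA, and Cuzd1 held 2 E-boxes and no TTCCCA. Cela3a held 5 E-boxes and 1 TTCCCA, and Reg2 held 3 and 2. TATAAA began 31 bases before the start in Try4 and 30 bases before it in Reg2, and was not found in Cela3a or Cuzd1. Within the 4 genes, the pair in both KO lists had TTCCCA and the pair in E15.5 KO alone did not. In Cela3a the only match was TGGGAA at the outer edge of the stretch, so a shorter stretch would not hold it. The split describes 4 genes that were picked by their listing. Other genes with and without TTCCCA, such as Gp2 with it and Cela3b without it, were in all 3 complete lists.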

How the data were processed

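The deposited files used here are 4 gene lists, 1 per library, each with an Ensembl identifier and a symbol per line and no measured value, per the files themselves. The submitters' processing notes name Seurat and mm10. The aligner, annotation release, gene filter and the handling of reads that fit several genes are not stated in the labels, and the depth is unknown. The E15.5 WT list was read up to its last complete line. The 32 genes and all lists were chosen with earlier results of these data known. All 32 matched by symbol and by identifier. Gene types, positions and transcripts came from GENCODE mouse M21 (GRCm38), in which 29604 of 29652 listed identifiers were found. Listings were counted per library and per direction, beside all genes and protein-coding genes. The counting was tested on simulated lists. Transcript windows of 150 bases, the labelled read length, were matched exactly on the same strand against all other genes. Genes with at least 10% of windows shared were called near-identical, also where the shared windows came from overlapping exons. Close copies were found with BLAST+ 2.17.0 (blastn). The genes named were the 32, the members of other lists that differed or were in no list with up to 4 examples per list, and genes of the same family or overlapping within 100 kb that differed. 1810018F18Rik, Fgfr2, Gm37301, Klk1b22, Klk1b26, Klk1b27 and Rnpc3 were named after their listing was seen. Scripts ran in Python 3.11.15.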

Additional observations from a re-analysis of the deposited data

How the results depend on the processing

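Matching by identifier, or with older symbols and appended suffixes merged, left the listed genes at 32 in E15.5 KO, 30 in E13.5 KO and 28 in E13.5 WT. The 6 genes called near-identical were Prss3, Try4, Try5, Ctrc, Cela2a and Amy1. Ctrc, Cela2a and Amy1 were among them through exons that overlap another gene, not through a close copy. Without the 6, 1 gene instead of 2 was in E15.5 KO only against E13.5 KO, because Try4 is among them. Chosen after seeing the data, leaving out the 10 genes near-identical at 100 bases, or the 10 that share any 150-base window, left 1 instead of 2 in E13.5 KO only against E13.5 WT, because Cela3a was left out, and 1 instead of 2 in E15.5 KO only. With windows of 100 bases, 10 genes instead of 6 shared at least 10% of windows. With protein-coding genes as background, the share in KO only at E13.5 was 3.17% and in WT only 2.91%, and between the KO ages 2.55% in E15.5 only and 5.03% in E13.5 only. Over all annotated protein-coding genes the last pair was 2.03% and 4.02%. The other 41 of 53 alternatives stayed within 1.5 times of the reported count. No paired analysis was possible because every group is a single library. With depth unknown, a gene that is not listed may have been missed.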
